A study of Danio rerio with 6 samples.

Results

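The genes described here are 10 genes of neutrophil granules and of acute inflammation, measured in whole zebrafish larvae with and without a working tlr2 gene. They were taken by their symbols in the deposited gene table, as mpx, lyz, npsn, lect2l, srgn, ncf1, mmp9, mmp13a, il1b and cxcl8a. That table holds 13 entries under these 10 symbols, of 30258 entries in all, because lyz has 3 entries and mmp13a has 2. RNA from larvae at 5 days post fertilization (dpf) was sequenced in 3 biological replicates of tlr2+/+ (wild type) and 3 of tlr2-/- (tlr2 mutant), with reads of 150 nt. The mutants carry the ENU-induced allele sa19423 of the tlr2 gene, and carriers were outcrossed repeatedly to the ABTL wild type strain. All larvae of both genotypes were unchallenged. Larvae of a replicate were offspring of a single cross, and mutant and wild type larvae had different parents, so that an allele shared by the parents of a genotype cannot be told apart from the tlr2 mutation.

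Tlr2 is a receptor of innate immunity that recognizes bacterial lipopeptides and signals through MyD88 to NF-kB. Neutrophils store antimicrobial proteins and proteases in granules, release them at sites of infection or injury, and assemble an NADPH oxidase that makes superoxide. Il1b and Cxcl8a are made early in inflammation, and Cxcl8a attracts neutrophils through the receptors Cxcr1 and Cxcr2, while the metalloproteinases Mmp9 and Mmp13a cut extracellular matrix and are induced in inflamed or injured tissue. In zebrafish larvae mpx, lyz, npsn and lect2l are widely used as markers of neutrophils, which are a small share of the cells of a larva.

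The libraries held 17854737 to 33403126 reads. Neither entry of tlr2 (ENSDARG00000037758 and ENSDARG00000116961) had a read in any library, so the targeted gene could not check the genotype labels. Markers of the tissues expected in a whole larva, among them rho of rods, ckma of muscle, fabp10a of liver and krt4 of skin, had reads in the libraries. Wild type replicates 1 and 2 stood apart by the genes they did not detect. Among genes at 1 to 5 CPM (reads of a gene scaled to the size of its library) by the median of the remaining 5 libraries, 32.7% and 41.7% were without a read in them, whereas 1.58% to 10.2% were in the other 4. Wild type replicate 3 stood apart by its scaling, with a TMM factor (which corrects the library size for a few genes that take many reads) of 1.59, against 0.789 to 0.983 in the others. Across all genes the biological coefficient of variation was 1.05, and 1 gene of 16776 tested, none of those described here, differed between the genotypes at an adjusted p under 0.05 in edgeR's quasi-likelihood test.

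None of the neutrophil and inflammatory genes passed this test between the genotypes. Of the 13 entries, 10 had enough reads to be tested, and 0 of them passed an adjusted p under 0.05, beside 0.00596% of all genes tested. The adjusted p from edgeR was 1.00 for each of the 10. At an unadjusted p under 0.05 there was 1 entry, mmp9, beside 3.73% of all genes (625 genes, of which 1.99% of those tested were lower in the mutant and 1.73% higher). The 10 entries had a median log2 fold change of -0.51, with 7 negative and 3 positive values, whereas all genes tested had a median of 0.02 and 48.9% negative values. Here a negative value is a lower level in the mutant larvae. DESeq2's Wald test called 0 of these entries, with 0.226% of all genes called (39 genes), and DESeq2 with apeglm called 0 at an s-value of at most 0.005, with 0.166% of all genes called (35 genes). limma-trend on log2(TPM + 1) and voom with sample weights also called 0 of them, with 0.02% (4 genes) and 0.0119% (2 genes) of all genes called.

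The size of the differences depended on how the libraries were scaled and on which wild type libraries were used. When library sizes were used without TMM factors, the median of all genes moved from 0.02 to -0.42, and 9 of the 10 entries were negative with a median of -0.80. The median of the 10 entries was -0.01 without wild type replicate 1 and -0.93 without wild type replicate 3. With wild type replicate 3 as the only control, which leaves out both libraries that detected fewer genes, it was 0.54, and again 0 entries passed, while 758 genes (3.73%) did. That fit assumes that the single wild type library varies like the mutant libraries.

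**Figure D1:**
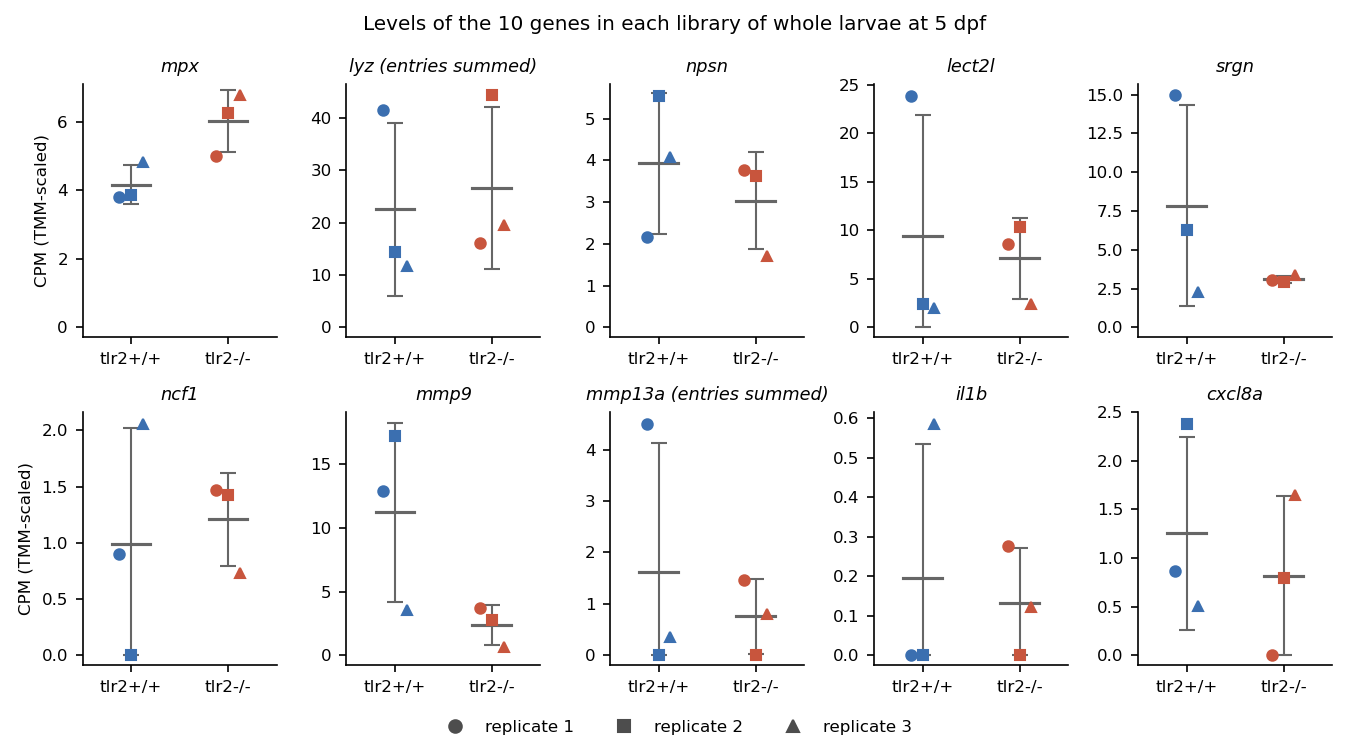
Each panel plots CPM with TMM scaling (y axis, from 0) of a gene in the 3 tlr2+/+ and 3 tlr2-/- libraries, with symbols for replicates, horizontal bars for means and error bars for the SD of 3 libraries, which are drawn down to 0 where the SD exceeds the mean. The mpx libraries of the genotypes did not overlap on this scale, from 3.80 to 4.84 against 5.01 to 6.77 CPM, although they did on the TPM scale, and in the other 9 panels the genotypes overlapped.

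mmp9 (ENSDARG00000042816), the gelatinase that cuts denatured collagen and is stored in neutrophil granules in mammals, had the lowest fold change of the 10 entries. Its level was 12.9, 17.2 and 3.53 CPM in wild type replicates 1, 2 and 3, and 3.68, 2.79 and 0.610 CPM in mutant replicates 1, 2 and 3. Wild type replicates 1 and 2 were high, mutant replicate 3 was low, and wild type replicate 3 lay just below mutant replicate 1. These values rest on 387, 311 and 187 wild type reads and on 80, 53 and 10 mutant reads. The mean was 11.2 ± 7.0 CPM (SD, n = 3) over the wild type and 2.36 ± 1.58 CPM (SD, n = 3) over the mutant libraries, a ratio of wild type to mutant means of 4.76. The log2 fold change was -2.24 ± 0.91 (SE), with an unadjusted p of 0.0294 and an adjusted p of 1.00 from edgeR's quasi-likelihood test. In TPM, which is scaled by transcript length and by the library total, every mutant library (0.168 to 1.12) was below every wild type library (2.03 to 5.03), as were 12.9% of all genes tested. The log2 fold change of mmp9 was negative under each of 20 alternative settings, with adjusted p values or s-values of 0.259 to 1.00. It was -0.41 with wild type replicate 3 as the only control, so that the size of the difference rested on wild type replicates 1 and 2. In RNA of whole larvae, fewer cells that express a gene and less RNA of it per cell cannot be told apart.

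mmp13a, a collagenase of injured and inflamed tissue, was at the edge of detection. The entry ENSDARG00000114451 had 135, 0 and 13 reads in wild type replicates 1, 2 and 3 and 32, 0 and 13 reads in mutant replicates 1, 2 and 3. Most of its reads came from wild type replicate 1, and replicate 2 of each genotype had none. The levels were 4.50, 0 and 0.246 CPM against 1.47, 0 and 0.793 CPM, and the log2 fold change was -1.06 ± 2.45 (SE, edgeR). Without wild type replicate 1 it was 2.67, the opposite direction. The second entry, ENSDARG00000012395, was not tested, with 6 reads in wild type replicate 3 and none elsewhere.

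The other inhibitors and matrix metalloproteinases were measured as 27 entries of 25 symbols, of which 16 were tested, 9 were negative and 0 passed, with a median of -0.08. The lowest p was that of timp2a, an inhibitor of metalloproteinases, at 14.2, 8.09 and 8.88 CPM in the wild type and 3.40, 5.37 and 2.68 CPM in the mutant libraries. Every mutant library was below every wild type library, as for 6.2% of all genes tested (log2 fold change -1.44 ± 0.72 (SE), unadjusted p = 0.0676, adjusted p = 1.00, edgeR). mmp15b went the other way, with 0, 0 and 16 reads in the wild type and 11, 36 and 40 reads in the mutant replicates. Its log2 fold change was 3.88 ± 2.57 (SE, edgeR). Every mutant library was higher in CPM, as for 6.87% of all genes tested, but the libraries overlapped in TPM. mmp2, the gelatinase of connective tissue, had 32.3, 8.53 and 36.2 CPM against 23.6, 14.0 and 11.5 CPM, with overlapping libraries.

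mpx (ENSDARG00000019521) encodes myeloperoxidase, the granule enzyme that makes hypochlorous acid, and was the steadiest of these genes in CPM with TMM scaling. Its level was 3.80, 3.88 and 4.84 CPM in wild type replicates 1, 2 and 3 and 5.01, 6.27 and 6.77 CPM in mutant replicates 1, 2 and 3. Every mutant library was above every wild type library on this scale, which makes mpx the 1 entry of 10 whose libraries did not overlap, where 13.1% of all genes tested did not overlap and 6.87% were higher in every mutant library. The means were 4.17 ± 0.576 CPM (SD, n = 3) and 6.02 ± 0.907 CPM (SD, n = 3), and the log2 fold change was 0.53 ± 0.87 (SE, adjusted p = 1.00, edgeR), although it was 0.10 without TMM factors and -0.00 with limma-trend on log2(TPM + 1). The TPM of mpx ran from 1.03 to 2.48 in the wild type and from 1.36 to 1.68 in the mutant libraries, with wild type replicate 3 the highest of all. The SD of log2(CPM + 0.5) within genotypes was 0.19 for mpx, against a median of 0.90 over the 2516 tested genes whose mean was within 0.5 of it.

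The reads of mpx fell on 2 transcripts in shares that differed between libraries. ENSDART00000043961.8 had 114, 70.0 and 87.3 reads in the wild type and 32.5, 0 and 74.2 reads in the mutant replicates 1, 2 and 3. ENSDART00000111058.4 had 0, 0 and 169 reads in the wild type and 76.5, 119 and 36.8 reads in the mutant replicates. Wild type replicates 1 and 2 thus held the first transcript alone, mutant replicate 2 held the second alone, and the other 3 libraries held both. These are estimates, since the transcript reads were not whole in the 3 libraries with both and summed to whole numbers there (within 0.01), and the sum per gene does not depend on the division.

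**Figure D2:**
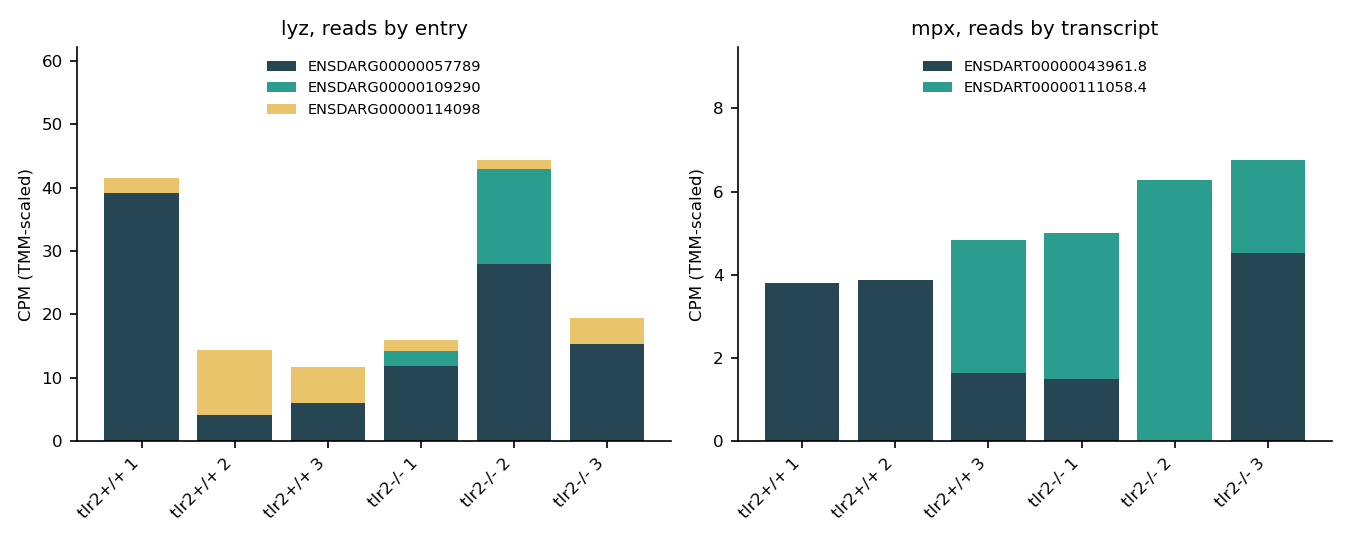
Stacked bars give the CPM with TMM scaling (y axis, from 0) of the 3 lyz entries (left) and of the 2 mpx transcripts (right) in each library. The lyz entry ENSDARG00000109290 appears in mutant replicates 1 and 2 alone, and the summed mpx level varies less between libraries than the shares of its transcripts.

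lyz encodes lysozyme, which cleaves the peptidoglycan of bacterial cell walls, and was the most abundant of the 10 genes. Summed over its entries it had 41.5, 14.4 and 11.7 CPM in wild type replicates 1, 2 and 3 and 16.0, 44.4 and 19.5 CPM in mutant replicates 1, 2 and 3. The genotypes overlapped fully, with wild type replicate 1 and mutant replicate 2 both high. The summed log2 fold change was 0.24 ± 0.55 (SE, adjusted p = 1.00, edgeR).

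The 3 entries of lyz gave different values, and the division of reads among them is uncertain. In every library at least 2 entries had reads that were not whole and that summed to a whole number over the entries (within 0.01), so that reads shared by the entries were divided between them. RefSeq annotation of another assembly, GRCz12tu, has 1 lyz gene. ENSDARG00000057789 had 39.1, 4.21 and 6.08 CPM in the wild type and 11.8, 27.9 and 15.3 CPM in the mutant libraries, with a log2 fold change of 0.15 ± 0.77 (SE). ENSDARG00000114098 had 2.43, 10.2 and 5.57 CPM against 1.79, 1.53 and 4.21 CPM, with a log2 fold change of -1.27 ± 1.09 (SE). The genotypes overlapped for both, and the adjusted p from edgeR was 1.00 for both.

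The third lyz entry, ENSDARG00000109290, had 0 reads in every wild type library and 53, 285 and 0 reads in mutant replicates 1, 2 and 3. The libraries of the genotypes overlapped, since mutant replicate 3 also had no read. Set against 3 counts for the wild type pool, a pool of the mutant libraries was 199-fold higher, and 46.8-fold higher without mutant replicate 2. These are not lower bounds, because the 3 counts cover counting error only and not the division of reads among the lyz entries. The entry was removed by the filter on low counts. Without that filter it passed, with an adjusted p of 0.0497 from edgeR, among 41 genes (0.171% of 23952). Because its reads depend on that division, this p carries no weight. The summed level of lyz overlapped between the genotypes, as given above.

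lect2l (ENSDARG00000033227), whose product is related to the leukocyte chemotaxin Lect2, had 23.8, 2.44 and 2.04 CPM in wild type replicates 1, 2 and 3 and 8.59, 10.3 and 2.44 CPM in mutant replicates 1, 2 and 3. Wild type replicate 1 was the highest library and the other 2 wild type libraries were, with mutant replicate 3, the lowest. The log2 fold change was -0.41 ± 0.95 (SE, adjusted p = 1.00, edgeR), and it was 1.76 without wild type replicate 1.

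srgn (ENSDARG00000077069) encodes serglycin, the proteoglycan core that packs proteases and other cargo into secretory granules of blood cells. Its level was 15.0, 6.26 and 2.29 CPM in wild type replicates 1, 2 and 3, and 3.03, 2.90 and 3.35 CPM in mutant replicates 1, 2 and 3. The mutant libraries were close together, and the wild type libraries lay on both sides of them. The means were 7.84 ± 6.49 CPM (SD, n = 3) and 3.10 ± 0.234 CPM (SD, n = 3), and the log2 fold change was -1.34 ± 0.94 (SE, unadjusted p = 0.178, adjusted p = 1.00, edgeR). In TPM and in CPM without TMM factors every mutant library was below every wild type library for 2 of the 10 entries, srgn and mmp9, where 12.9% and 10.3% of all genes tested were. None of the 10 lay the other way on these scales, on which 2.53% and 3.44% of all genes tested did. With wild type replicate 3 as the only control the log2 fold change of srgn was 0.60, the opposite direction.

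npsn (ENSDARG00000010423), which encodes nephrosin, a secreted metalloproteinase of the astacin family, had 2.17, 5.54 and 4.08 CPM in wild type replicates 1, 2 and 3, and 3.77, 3.64 and 1.71 CPM in mutant replicates 1, 2 and 3. The genotypes overlapped, and the log2 fold change was -0.37 ± 1.18 (SE, adjusted p = 1.00, edgeR). A second npsn transcript, ENSDART00000148018.2, had 41.6 reads in wild type replicate 3 and none in the other 5 libraries.

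ncf1 (ENSDARG00000033735) encodes p47phox, the subunit that organizes the phagocyte NADPH oxidase at the membrane. Its reads were 27, 0 and 109 in wild type replicates 1, 2 and 3, and 32, 27 and 12 in mutant replicates 1, 2 and 3. The levels were 0.900, 0 and 2.06 CPM against 1.47, 1.42 and 0.732 CPM, so that the wild type held both the highest and the lowest library. The log2 fold change was 0.29 ± 2.16 (SE, adjusted p = 1.00, edgeR), and it was -0.37 without TMM factors. In wild type replicate 2, the library at 0, no read was also found for 41.7% of genes whose median elsewhere was 1 to 5 CPM, so that a count of 0 there does not show that ncf1 was silent.

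A list of oxidase genes beside ncf1 held 8 entries of 7 genes, among them hvcn1 and duox, which are not subunits of this oxidase. Of these, 5 entries were tested, 4 were negative and 0 passed (0 at an unadjusted p under 0.05). The median log2 fold change was -1.47, the value of duox itself (SE 2.65). duox had 117, 0 and 25 reads in the wild type and 34, 0 and 0 reads in the mutant replicates. hvcn1 was the 1 positive entry, at 1.23 ± 1.66 (SE). The summed level of the list was 14.5 to 26.7 CPM in the wild type and 6.28 to 13.5 CPM in the mutant libraries, without overlap. No test was made on this sum. rac2, the GTPase that activates the oxidase in blood cells, had 16.8, 8.42 and 6.91 CPM in the wild type and 5.84, 5.85 and 3.72 CPM in the mutant libraries (log2 fold change -1.06 ± 0.68 (SE), unadjusted p = 0.145, adjusted p = 1.00, edgeR). cyba, which encodes p22phox of the membrane core, had 4.13, 5.93 and 2.25 CPM against 1.19, 1.69 and 0.488 CPM (log2 fold change -1.86 ± 1.48 (SE), unadjusted p = 0.23, adjusted p = 1.00, edgeR). Both genes were lower in every mutant library than in any wild type library, as were 6.2% of all genes tested. The catalytic subunit gene cybb had 127 reads in wild type replicate 3, 1, 0 and 4 reads in mutant replicates 1, 2 and 3 and none in wild type replicates 1 and 2. Without wild type replicate 1 the median of the 5 tested entries of this list was -0.10.

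il1b and cxcl8a, the secreted signals of this group, were close to the limit of detection in these unchallenged larvae. il1b (ENSDARG00000098700), the pro-inflammatory interleukin, had 0, 0 and 31 reads in wild type replicates 1, 2 and 3, and 6, 0 and 2 reads in mutant replicates 1, 2 and 3. It was removed by the filter on low counts and was not tested. A count of 0 allows up to 3 counts in a library, or 0.0898 to 0.168 CPM on library sizes without TMM factors, for counting error only. cxcl8a (ENSDARG00000104795) had 26, 43 and 27 reads in the wild type and 0, 15 and 27 reads in the mutant replicates, or 0.867, 2.38 and 0.510 CPM against 0, 0.790 and 1.65 CPM. The genotypes overlapped, and the log2 fold change was -0.62 ± 2.22 (SE, adjusted p = 1.00, edgeR). Without wild type replicate 2 it was 0.23, so its direction rested on that library. The receptor genes cxcr1 and cxcr2 had no read.

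Of the other cytokines and chemokines, 46 symbols had 52 entries, of which 28 had reads and 14 were tested. 0 of them passed, 8 were negative, and 1 was higher at an unadjusted p under 0.05, where 1.73% of all genes tested were. That entry was csf3b, a granulocyte colony-stimulating factor that drives the production of neutrophils, with 0 reads in every wild type library and 44, 13 and 13 reads in mutant replicates 1, 2 and 3 (unadjusted p = 0.0215, adjusted p = 1.00, edgeR). Set against 3 counts in the wild type pool, the mutant pool was 41.2-fold higher, and 24.7-fold at the lowest when a mutant library was left out. These are not lower bounds, because the 3 counts cover counting error only. Because csf3b passed the filter on low counts through its mutant libraries alone, its p and its place in the count carry no weight. Its level in the mutant libraries was 2.02, 0.685 and 0.793 CPM. Among genes at 0.2 to 1 CPM by the median of the remaining libraries, 63.9% and 71.1% were without a read in wild type replicates 1 and 2, and 6.51% in wild type replicate 3. cxcl8b.3, a paralog of cxcl8a, had values the other way, with 0.534, 3.77 and 0.963 CPM in the wild type and 0.0919, 0.0527 and 0 CPM in the mutant libraries (unadjusted p = 0.071, adjusted p = 1.00, edgeR). It had 16, 68 and 51 reads in the wild type and 2, 1 and 0 reads in the mutant replicates. Because cxcl8b.3 passed the filter through its wild type libraries alone, its p and its place in the count carry no weight either. Genes for tnfa, il34 and cxcl18b had at most 48 reads in a library, and 19 of the symbols, among them il6, il10 and ifng1, had no read.

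Genes that respond to inflammatory signals had 18 tested entries, of which 11 were negative, 0 passed and 2 were lower at an unadjusted p under 0.05, where 1.99% of all genes tested were. nfkbiaa, an inhibitor of NF-kB that NF-kB itself induces, had 37.9, 31.3 and 16.7 CPM in wild type replicates 1, 2 and 3, and 15.4, 10.4 and 13.1 CPM in mutant replicates 1, 2 and 3. Every mutant library was below every wild type library, as for 6.2% of all genes tested, the closest pair being wild type replicate 3 and mutant replicate 1. With RLE scaling its libraries overlapped. The log2 fold change of nfkbiaa was -1.15 ± 0.45 (SE, unadjusted p = 0.0254, adjusted p = 1.00, edgeR). Its paralog nfkbiab had 184, 84.6 and 81.0 CPM against 106, 116 and 100 CPM, with a log2 fold change of -0.12 ± 0.38 (SE, edgeR). gadd45ba, a stress-induced regulator of kinase signalling, had 60.4, 45.5 and 26.3 CPM against 21.0, 29.9 and 15.1 CPM (log2 fold change -1.0 ± 0.43 (SE), unadjusted p = 0.0363, adjusted p = 1.00, edgeR). Mutant replicate 2 lay above wild type replicate 3 for this gene. The summed level of the list overlapped, at 213 to 397 CPM in the wild type and 211 to 241 CPM in the mutant libraries. Without wild type replicate 1, and likewise without mutant replicate 3, 0 of the 19 entries then tested were lower at an unadjusted p under 0.05.

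**Figure D3:**
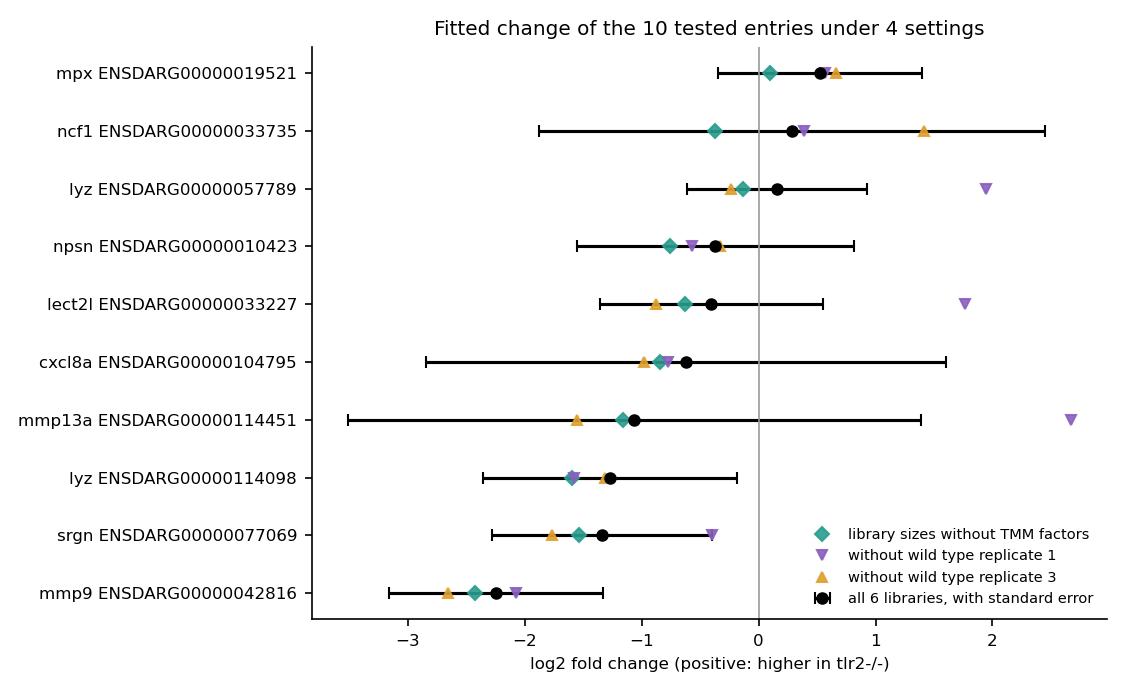
Black points give the log2 fold change (x axis, positive values are higher in tlr2-/-) of each of the 10 tested entries (y axis) with its standard error from edgeR, and coloured symbols give the same value in 3 other fits. mmp9 lies below -2.0 in the 4 fits shown, mpx lies above 0 in them with 0.10 as the lowest although it was -0.00 with limma-trend on log2(TPM + 1), and lect2l and mmp13a change sign without wild type replicate 1.

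Compared per transcript length, the 10 genes spanned a wide range of levels. The median TPM over the 6 libraries was 63.9 for lyz (range 50.1 to 113), 12.2 for lect2l (4.31 to 54.0), 3.34 for srgn (2.17 to 16.4), 2.73 for npsn (1.30 to 6.84) and 2.08 for cxcl8a (0 to 5.11). It was 1.57 for mmp9 (0.168 to 5.03), 1.36 for mpx (1.03 to 2.48), 0.478 for ncf1 (0 to 1.70), 0.227 for mmp13a (0 to 1.92) and 0.0369 for il1b (0 to 0.690). The ranges of each pair of neighbours in this order overlapped. Within libraries the order held in 6 of 6 for lyz above lect2l and for mpx above ncf1, but in only 2 of 6 for mmp9 above mpx. lyz alone made up 58.0% to 80.6% of the summed TPM of the 10 genes in a library. Reads were present in every library for 6 of the genes, whereas ncf1, cxcl8a, mmp13a and il1b had at least 1 library at 0.

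In CPM with TMM scaling the highest library differed from gene to gene, although it was a wild type library for all tested entries other than mpx. By gene this does not hold for lyz either. Summed over its entries, lyz was highest in mutant replicate 2, at 44.4 CPM against 41.5 CPM in wild type replicate 1. The share of all genes with their highest level in a wild type library was not counted. Wild type libraries were less alike than mutant libraries, with correlations of 0.79 to 0.80 against 0.89 to 0.91. With the mutant libraries, wild type replicate 3 correlated at 0.86 to 0.90 and wild type replicates 1 and 2 at 0.80 to 0.83. The highest library was wild type replicate 1 for 4 of the 10 entries (lect2l, srgn, mmp13a and 1 entry of lyz). It was wild type replicate 2 for 4 (mmp9, npsn, cxcl8a and the other entry of lyz), wild type replicate 3 for ncf1 and mutant replicate 3 for mpx. In TPM it was wild type replicate 3 for mpx, npsn and lyz ENSDARG00000114098 as well. Centred on each entry's mean on the scale of log2(CPM + 0.5), the average of the 10 entries was 0.74 in wild type replicate 1 and between -0.28 and -0.01 in the other 5 libraries. The root mean square distance of an entry from the average of the other 9 ran from 0.59 for srgn to 1.26 for mmp9. The genes elsewhere whose profiles over the 6 libraries were most like the average, of 14819 with a mean CPM of at least 1, were trappc8, zc3h18, arf6a, prelid3b and pcbp2, at distances of 0.084 to 0.11. The likeness reflects the height of wild type replicate 1, as in trappc8, with 45.1 CPM in that library and 20.7 to 23.3 CPM in the other 5.

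**Figure D4:**
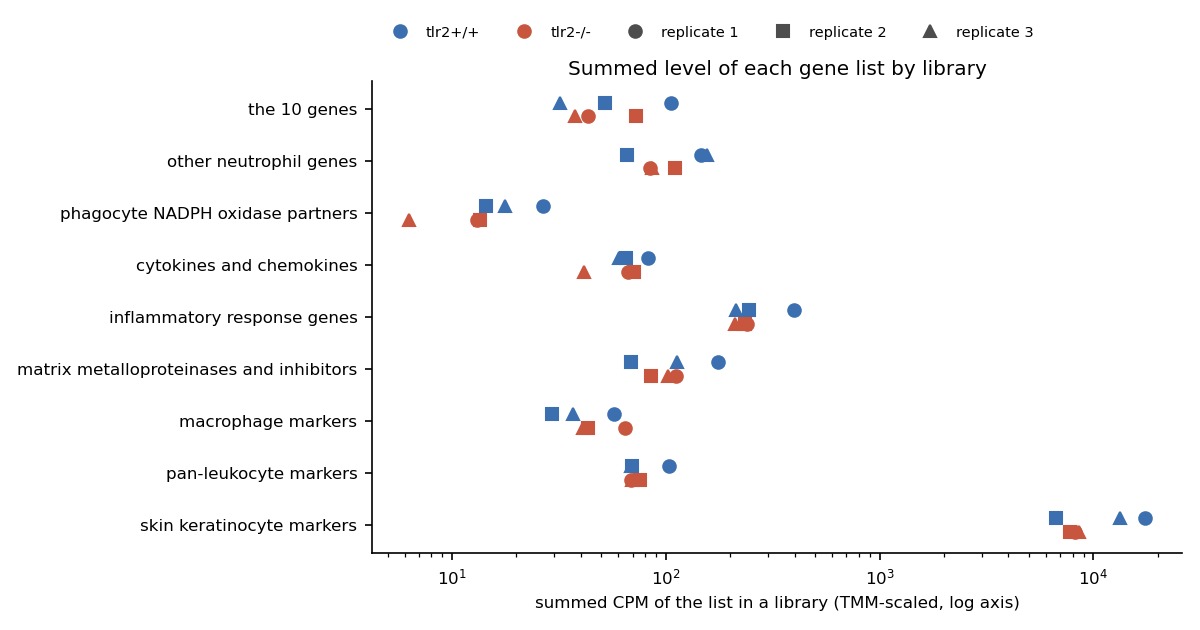
Points give the CPM with TMM scaling summed over all entries of a gene list in a library (x axis, log scale), by genotype (colour) and replicate (symbol). The sums of the 10 genes overlap, from 31.9 to 106 CPM in the wild type and from 37.7 to 72.6 CPM in the mutant libraries. Of the lists shown, only NADPH oxidase partners, with hvcn1 and duox in it, has every mutant library below every wild type library.

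Other genes of neutrophils, fixed as a list of 25 symbols with 33 entries, had 15 tested entries, of which 10 were negative, 0 passed and 0 had an unadjusted p under 0.05 (median log2 fold change -0.51). Of these 15, 2 did not overlap, rac2 and cyba, a share close to the 13.1% of all genes tested, and both were lower (6.2% of all genes). Their summed level was 65.9 to 155 CPM in the wild type and 84.7 to 111 CPM in the mutant libraries. The neutrophil regulators cxcr1, cxcr2 and cebp1 were among 7 symbols with no read, and csf3r, the receptor for granulocyte colony-stimulating factor, had 14 reads in wild type replicate 3, 10 in mutant replicate 3 and none elsewhere. fcer1gl, an adaptor of immune receptors, had 8.40, 0.775 and 1.66 CPM in the wild type and 7.31, 8.96 and 9.33 CPM in the mutant libraries, with wild type replicate 1 inside the mutant range (unadjusted p = 0.219, adjusted p = 1.00, edgeR). pnp5a had 26.2, 12.2 and 75.9 CPM against 19.1, 23.9 and 28.2 CPM.

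Lysozymes and other antimicrobial proteins had 9 tested entries, of which 4 were negative and 0 passed (0 at an unadjusted p under 0.05), with a median of 0.12. hp, the plasma protein haptoglobin that binds free hemoglobin, had 5.44, 6.15 and 1.1 CPM in the wild type and 1.01, 1.90 and 0.183 CPM in the mutant libraries, and these overlapped. Its log2 fold change was -2.03 ± 1.57 (SE, edgeR). hamp and bpifcl went the other way, at 3.04 ± 2.55 and 2.50 ± 2.40 (SE, edgeR), and their libraries overlapped as well. Genes that process Il1b or transmit its signal had 5 tested entries with 0 past the threshold (0 at an unadjusted p under 0.05). pycard, the adaptor of inflammasomes, had 14.3, 0.886 and 7.22 CPM against 5.93, 1.58 and 3.84 CPM.

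Markers of other cells that a whole larva holds were measured beside the neutrophil genes, and their part in the differences above was not tested. Of 20 macrophage symbols in the table with 25 entries, 18 entries had reads, 13 were tested, 6 were negative and 2 (c1qc and grn1) were higher at an unadjusted p under 0.05, beside 1.73% of all genes tested, with summed levels of 29.5 to 57.0 CPM in the wild type and 41.2 to 64.8 CPM in the mutant libraries. c1qa and c1qb had no read, whereas c1qc had 0 reads in the wild type and 70, 27 and 9 reads in mutant replicates 1, 2 and 3. With 3 counts set for the wild type pool, the mutant pool was 62.5-fold higher, and 34.3-fold at the lowest when a mutant library was left out. These are not lower bounds either, because the 3 counts cover counting error only. c1qc also passed the filter through its mutant libraries alone, so that its p carries no weight. The defining marker mpeg1.1 had 48 reads in wild type replicate 3, 4, 1 and 7 reads in mutant replicates 1, 2 and 3 and none in wild type replicates 1 and 2. grn1, a granulin, had 11.8, 6.26 and 9.52 CPM in the wild type and 29.9, 24.6 and 14.8 CPM in the mutant libraries (unadjusted p = 0.0191, adjusted p = 1.00, edgeR). On this scale every mutant library was above every wild type library, as for 6.87% of all genes tested. In TPM and in CPM without TMM factors the libraries of grn1 overlapped. Pan-leukocyte markers had 8 tested entries, 4 of them negative, 0 at an unadjusted p under 0.05 and a median of 0.01, with summed levels of 68.7 to 104 CPM against 68.8 to 76.0 CPM. Their highest library was wild type replicate 1, and ptprc had no read in 3 of the 6 libraries. Markers of thrombocytes, erythrocytes, endothelium and liver had 3, 7, 6 and 7 tested entries, 0 of which passed, and 1 of them, tfa of liver, was lower at an unadjusted p under 0.05, where 1.99% of all genes tested were.

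Wild type replicate 1, the library in which the average of the 10 entries was highest, was also the highest for the summed skin list and for cpa5. It was likewise the highest for summed metalloproteinases, cytokines, inflammatory response genes, pan-leukocyte and endothelial markers. It was not the highest for summed macrophage markers or other neutrophil genes. All 11 tested entries of the skin keratinocyte list were negative, beside 48.9% of all genes tested, and 0 passed in edgeR. Of these entries 3, of krt8, krt4 and krt5, had an unadjusted p under 0.05, beside 1.99% of all genes lower at that p. The other tested entries of krt8, krt4 and krt5 had unadjusted p values of 0.25, 0.50 and 0.20 in edgeR. With the entries of a symbol summed, 8 of 8 symbols were negative and 0 had an unadjusted p under 0.05. The summed level of that list was 17460, 6677 and 13376 CPM in wild type replicates 1, 2 and 3 and 7795 to 8527 CPM in the mutant libraries. cpa5, a protease gene of the mast cell list, had 283, 17.1 and 24.4 CPM in the wild type and 138, 88.8 and 72.1 CPM in the mutant libraries. Wild type replicate 1 was again the highest, followed by mutant replicates 1, 2 and 3. The digestive enzyme gene prss1 had that same order, at 1370, 292 and 265 CPM against 1333, 1095 and 555 CPM. Whether the reads of cpa5 came from mast cells was not tested. gata2a, the other gene of the mast cell list, had 45.8, 29.8 and 25.7 CPM against 45.8, 49.96 and 41.8 CPM and was highest in mutant replicate 2. The part of these markers in the levels of lect2l, srgn and mmp13a was not tested.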

How the data were processed

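The authors mapped reads of poly(A)-selected, stranded libraries to GRCz11. They used Salmon v1.2.1, from which they deposited estimated counts, TPM values and effective lengths per transcript for each library. Salmon's options and the annotation release were not given in the sources used here. A gene table of the authors holds a mean signal over the 6 libraries from DESeq2 v1.24.0, and its fold changes and s-values were not used.

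Deposited transcripts carry no gene IDs. A gene was joined to the neighbouring transcripts, up to 40, whose normalized counts gave its deposited mean within a relative difference of 1e-12. This placed 21079 of 23956 genes with a mean above 0 and left out 4 ambiguous ones. Another 2873 genes had reads in 1 library, solved from the mean, and entered only the fit without a filter and the sums over symbols or lists. Reads and TPM were summed per gene, and counts were rounded.

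Genes were filtered with filterByExpr, scaled by TMM, and tested with the robust quasi-likelihood fit of edgeR 4.0.16, genotype being the only factor, with Benjamini-Hochberg adjustment over all genes tested. SE is the absolute log2 fold change over the root of F. CPM use TMM factors. Alternatives used limma 3.58.1, DESeq2 1.42.0, apeglm 1.24.0 and R 4.3.3, with Python 3.11.15, numpy 2.4.6 and pandas 2.3.3 for the join. limma-trend used log2(TPM + 1) or log2(TPM + 0.1) of genes with a mean TPM of at least 0.1. Other alternatives were RLE scaling, other filters, offsets for transcript length, the replicate number as a block, voom with sample weights, summed entries of a symbol, each library left out, and wild type replicate 3 alone. The fits were also run on simulated data to check the code, and no result here rests on that run.

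The genes and lists were chosen with earlier results of these data known. All entries of the 10 genes are named, and up to 4 entries of smallest p in each other list. Other genes with few reads, and the spread of mpx, were singled out after their values were seen. A gene of these lists is not reported here by name. No sequences are shown.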

Additional observations from a re-analysis of the deposited data

How the results depend on the processing

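The p-values set a difference against the spread between 3 libraries of each genotype, estimated with information shared across genes. That spread was wide across all genes, and no difference seen in a tested entry of the 10 genes passed. A p-value here is thus not a measure of a gene's own spread alone. For mpx the SD of log2(CPM + 0.5) within genotypes was 0.19, yet the SE of its log2 fold change in edgeR was 0.87. Values at or below a few reads carry a large counting error. Wild type replicates 1 and 2 had the most genes without a read, although mutant replicate 3 was the library with the fewest reads. These libraries held 30584310, 19828367 and 17854737 reads, and the cause of the missing genes was not tested. The number of entries of the 10 genes past the threshold was 0 in every setting except edgeR without the filter, where it was 1 (lyz ENSDARG00000109290). Genes past the threshold were 1 in the main comparison, 41 without a filter, 64 with the replicate block, 758 with wild type replicate 3 as the only control, 39 with DESeq2's Wald test, 35 with apeglm, 4 with limma-trend on log2(TPM + 1), 2 with voom, and 0 with a mean CPM of at least 1, with summed entries of a symbol, with the other limma-trend settings and without TMM factors, a setting chosen after seeing the data. They ranged from 0 to 5 when a library was left out. The median of the 10 entries was 0.54 with wild type replicate 3 as the only control, -0.01 with apeglm (-0.0056), -0.01 with voom (-0.0084), and -0.93 to -0.0062 when a library was left out. Fold changes from apeglm are shrunken toward 0 (-0.049 for mmp9), so that its median is not on the scale of the others. Entries whose libraries did not overlap were 1 of 10 in the main comparison, 2 of 12 in the 3 limma-trend settings (12.8% to 13.4% of all genes) and 2 of 10 without TMM factors (13.7%). They were 8 of 12 with wild type replicate 3 as the only control (57.2%). When a library was left out they were 1 to 5, of 10 or 11 entries then tested (18.2% to 35.8%). The median of all genes moved from 0.02 to 0.33 with the replicate block, 0.41 with voom and -0.18 with limma-trend on log2(TPM + 1).

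Directions turned as follows, and the cause was not tested. With wild type replicate 3 as the only control the log2 fold changes were 1.98 for lect2l, -0.60 for ncf1, 0.60 for srgn, 0.83 for cxcl8a and 1.76 for mmp13a. With voom they were 0.24 for lect2l and 0.60 for mmp13a. With limma-trend on log2(TPM + 1), with or without a filter, they were -0.0019 for mpx and -0.085 for ncf1. Without TMM factors they were -0.37 for ncf1 and -0.13 for lyz ENSDARG00000057789. The summed entries gave 0.24 for lyz. When a library was left out, the values ran from -0.87 to 1.76 for lect2l, -0.30 to 1.41 for ncf1, -0.30 to 1.94 for lyz ENSDARG00000057789, -1.65 to 0.23 for cxcl8a and -1.99 to 2.67 for mmp13a. Those of mmp9 (-2.71 to -1.79), srgn, npsn, mpx and lyz ENSDARG00000114098 kept their sign when any library was left out.

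The labels do not say whether the replicate numbers pair the samples. Deviations from the genotype means correlated at 0.021, 0.056 and 0.099 for libraries of the same number, and at -0.13 to 0.065 for the other pairs. Not every library correlated best with its own number, and these values do not settle whether samples were paired. With the replicate number as a block, 0 of the 10 entries passed and 64 genes did, and the log2 fold changes of lect2l and mmp13a were 0.28 and 0.013.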
